A study of Mus musculus with 7 samples.

Results

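The RAB genes encode the largest branch of the small GTPases and were followed here as a family in nascent RNA of blood stem cell-forming clusters of the mouse embryo. All protein-coding genes whose mouse symbol is Rab followed by a digit were taken, and the names of RAB partners were left out. This gave 59 RAB genes of 55487 genes in the raw count table, of which 21974 are protein-coding. GFI1+ IAHC cells (CD31+cKIT+GFI1+), from the intra-aortic hematopoietic clusters that bud from the floor of the dorsal aorta, had been sorted from the aorta-gonad-mesonephros region (AGM) of E11.5 mouse embryos. The embryos were of the strain CD1/Gf1+ in the labels and carried a Gfi1:tomato reporter according to the study's methods.

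All cells were first held overnight in compE (compound E), which blocks γ-secretase, the protease that frees the active part of NOTCH, so every group, the washout included, had seen the inhibitor. They were then washed, divided into sets of 300 to 400 cells and cultured for 4 h in methylcellulose with ethynyl uridine, which marks newly made RNA for capture. In the washout (3 libraries, numbered 1 to 3) only the solvent DMSO was added, in the compE group (2 libraries, 1 and 2) the inhibitor was given again, and in the Fc-JAG1 group (2 libraries, 1 and 3) the soluble NOTCH ligand Fc-JAG1 was added. The labels state 10 mM compE and 4 mg/ml Fc-JAG1 and the methods give the same figures in µM and µg/ml, so the doses are not settled. By the labels, the number of a library names the embryo sample it came from. Libraries of the 3 groups with the same number were paired. The study describes cells from pools of embryos, so an embryo sample need not be a single embryo. The libraries hold no molecular identifiers and were amplified by PCR from little RNA, so a count is not a molecule, and in bulk samples fewer cells of a kind and less RNA per cell cannot be told apart.

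RAB proteins switch between a GDP-bound form in the cytosol and a GTP-bound form on membranes, to which they are anchored by prenyl groups. On the membrane they recruit effectors that bud, move, tether and fuse vesicles, and each organelle carries its own set of RABs. Exchange factors load them with GTP and GTPase-activating proteins switch them off. In blood cells they carry endocytosed receptors, secretory granules and lysosome-related organelles. NOTCH receptors and ligands themselves travel through RAB-marked endosomes.

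The libraries were not alike in how many genes they held. Total counts ran from 21652927 to 33974693 per library. At 10 or more counts, the protein-coding genes detected ran from 25.6% in washout 1 to 49.3% in washout 2, and washout 2, compE 2 and Fc-JAG1 1, at 46.9% to 49.3%, stood above the other 4 libraries, at 25.6% to 33.2%. These 3 libraries belong to different groups. In the pair numbered 1, Fc-JAG1 1 is on the high side and washout 1 on the low side. In the pair numbered 2, both are on the high side, and in the pair numbered 3 both are on the low side. Of 10 markers of the sorted cells, 7 to 9 reached 10 counts in each library. Their summed levels ran from 2323 to 3575 counts in every 1000000 counts of the library (CPM). Single markers had gaps that the sum hides. Gfi1, whose reporter served the sort, had 0, 12 and 2477 counts in washout, 0 and 0 in compE and 2504 and 0 in Fc-JAG1. Gata2 was at 0 in compE 1, Pecam1 at 18 in washout 1 and 11 in Fc-JAG1 3, and Cdh5 reached 10 counts only in washout 1. Summed macrophage markers (8 genes) held 373 to 518 CPM in washout, 91.7 and 406 in compE and 565 and 135 in Fc-JAG1. The members of this list differed. Lyz2, Ctss, Cd68 and Csf1r reached 13012, 4768, 3935 and 3627 counts at most, and Adgre1 3361. Mertk and C1qb reached 54 and 6, and C1qa had 259 in washout 2 and 0 elsewhere. The sum therefore does not show that macrophages were present. Summed erythroid markers (8 genes) held 20.0 to 415 CPM in washout, 22.2 and 109 in compE, and 108 and 82.8 in Fc-JAG1. Markers of epithelium, mesenchyme and nerve stayed at or under 12.9 CPM in each library. The part of any other blood cells in the RAB values was not tested.

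The RAB genes took 0.293% to 0.422% of all counts. At 10 or more counts, 23, 39 and 22 of the 59 RAB genes were present in washout 1, 2 and 3. In compE 1 and 2 the numbers were 25 and 38, and Fc-JAG1 1 and 3 held 39 and 22. The same 3 libraries that were rich in genes of all kinds were therefore rich in RAB genes, and each group held at least 1 of them. As shares of the family these numbers are 37.3% to 66.1%, above the share of protein-coding genes in all 7 libraries. Thinning every library to the smallest total changed the number by at most 1 gene. In washout 2, compE 2 and Fc-JAG1 1 together, 33 RAB genes reached 10 counts in all 3 libraries. Of these, Rab33b, Rab34 and Rab3d stayed under 10 counts in the other 4 libraries, and 20 reached it in some of those 4. Rab40b is the only RAB gene that reached 10 counts elsewhere but in none of the 3.

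**Figure D1:**
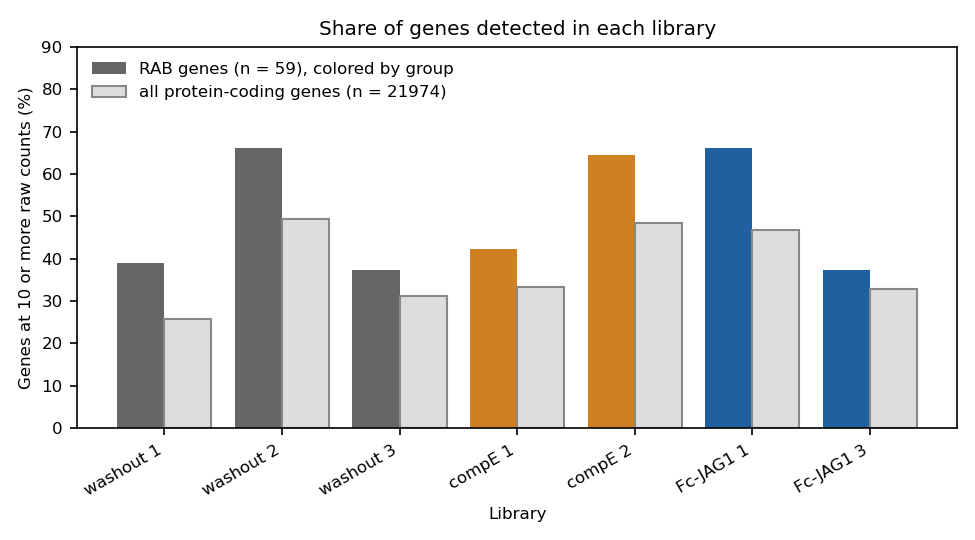
Percentage of genes with 10 or more raw counts in each library (vertical axis), for the 59 RAB genes (bars colored by group) and all protein-coding genes (light bars). The RAB share lay between 37.3% and 66.1% and was above the protein-coding share in each of the 7 libraries.

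Across the libraries the family fell into genes seen everywhere, genes that came and went, and genes not seen. In all 7 libraries, 10 RAB genes (16.9%) reached 10 counts, against 13.1% of protein-coding genes. In no library, 12 RAB genes (20.3%) did so, against 39.2% of protein-coding genes. The other 37 were present in 1 to 6 libraries. In the map of counts by library, many of these genes drop from many counts to almost none, while others, such as Rab3b and Rab40b, are low throughout. Of the 32 RAB genes that passed the low-count filter used for testing (10 counts in at least 2 libraries of one group), 18 held 1000 or more counts in one library and 3 or fewer in another. That is 56.2% of them, against 46.7% of all 10311 genes that passed, so this on-and-off pattern is common in these data and is not particular to RAB genes.

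**Figure D2:**
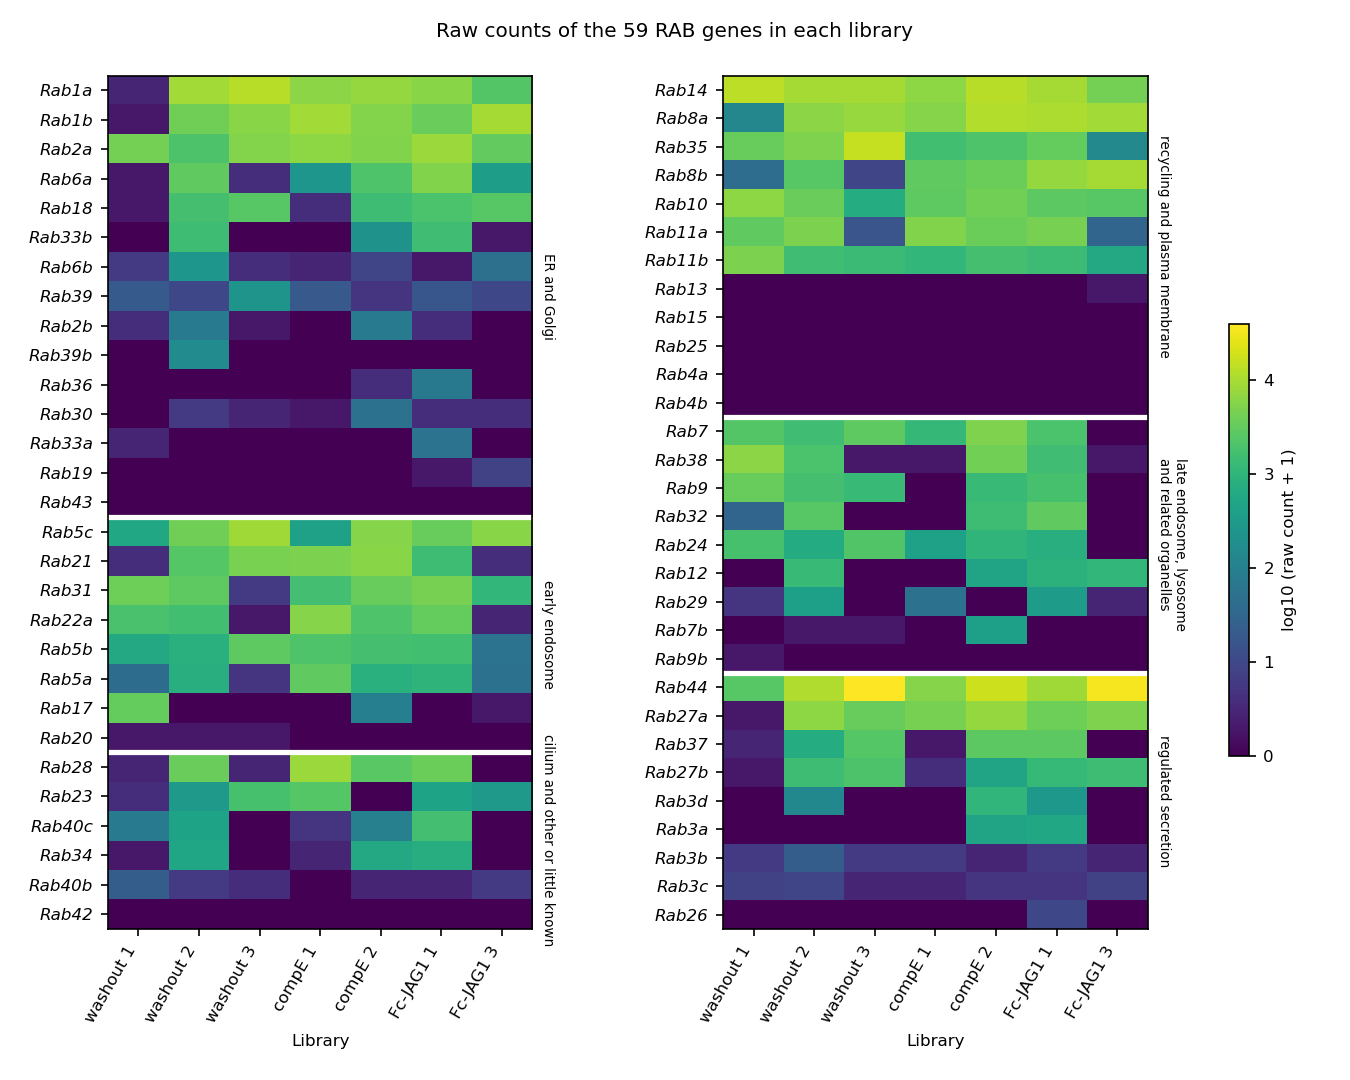
Raw counts of the 59 RAB genes (rows, ordered by total within each compartment group) in the 7 libraries (columns), with color giving log10 of the raw count plus 1. Rab2a, Rab14, Rab10, Rab11b and Rab44 are bright in every column, while Rab12, Rab6a, Rab18 and Rab32 are bright in some columns and dark in others.

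The RABs of the recycling pathway and the plasma membrane were the group with the most genes present everywhere. Of its 12 genes, 6 reached 10 counts in all 7 libraries and 5 in none. Presence was not steadiness. Rab11a, Rab35 and Rab8a of this group spanned 405-fold, 90.7-fold and 56.8-fold in CPM, the widest ranges among the 10 RAB genes present everywhere. Rab14, which moves cargo between the trans-Golgi network and endosomes, had 13915, 9375 and 9746 counts in washout, 6460 and 12844 in compE and 9699 and 4321 in Fc-JAG1. Its highest level was only 3.92 times its lowest in CPM. Rab10, which serves exocytosis and basolateral delivery, had 6551, 3466 and 690 counts in washout, 2868 and 4168 in compE and 2808 and 2507 in Fc-JAG1, with washout 3 as the low library. Rab8a, a RAB of exocytosis and of the cilium, had 132, 6350 and 7771 counts in washout, 5738 and 11766 in compE and 10936 and 9077 in Fc-JAG1. Washout 1 alone was low for Rab8a, and the remaining 6 libraries held 5738 counts or more. Rab35, which acts in fast endocytic recycling and cytokinesis, is described with the comparisons.

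Within the recycling pair Rab11a and Rab11b, Fc-JAG1 3 was a low library for both genes, whereas washout 3 was low for Rab11a only. Rab11a had 3035, 4911 and 15 counts in washout, 5444 and 3669 in compE and 4619 and 31 in Fc-JAG1. Rab11b had 4994, 1535 and 1371 counts in washout, 1127 and 1722 in compE and 1419 and 600 in Fc-JAG1. Both libraries numbered 3 were thus almost empty of Rab11a, whose levels spanned 405-fold in CPM, while Rab11b spanned 10.1-fold. At the other end, Rab4a, Rab4b, Rab15 and Rab25 had 0 counts in all 7 libraries, and Rab13, a RAB of epithelial junctions, never reached 10. Rab4a and Rab4b belong to the fast recycling route, and Rab25 is known from epithelium. A count of 0 in all 7 libraries allows up to 3 counts, or 0.0146 CPM over the libraries together, and covers counting error only. Rab4b shares 65.0% of its exon bases with the overlapping gene Gm21983 on the same strand, whereas Rab4a, Rab15, Rab25 and Rab13 share none with another gene.

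Among the 15 RABs of the endoplasmic reticulum and Golgi, Rab2a alone was present in all 7 libraries. Rab2a, which acts between these compartments, had 4409, 2040 and 5651 counts in washout, 6639 and 5248 in compE and 8068 and 3128 in Fc-JAG1. Its range of 3.64-fold was the smallest of the 10 RAB genes present everywhere. Rab1a and Rab1b, close paralogs that carry vesicles from the endoplasmic reticulum to the Golgi, were both missing from washout 1. Rab1a had 2, 9004 and 12710 counts in washout, 6253 and 7459 in compE and 6023 and 2319 in Fc-JAG1, the largest total of this group. Rab1b had 1, 4022 and 6100 counts in washout, 9354 and 5494 in compE and 3577 and 9450 in Fc-JAG1. Apart from washout 1, neither paralog fell under 2319 counts. Only uniquely mapped reads were counted, so reads from stretches that paralogs share went to neither, and the split between close paralogs is uncertain. Rab43 was at 0 in all 7 libraries and shares 75.4% of its exon bases with Gm45140 on the same strand.

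The early endosome RABs numbered 8, of which 6 passed the filter. The Rab5 trio drives fusion of early endosomes. Rab5a had 42, 813 and 4 counts in washout, 2976 and 829 in compE and 1000 and 51 in Fc-JAG1. Rab5b had 604, 826 and 2891 counts in washout, 2184 and 1735 in compE and 1640 and 55 in Fc-JAG1. Rab5c had 579, 3999 and 8927 counts in washout, 435 and 5722 in compE and 3422 and 6110 in Fc-JAG1. Each library held at least 1 of the 3 genes at 604 or more counts, but no library order was common to them: washout 3 was the highest library for Rab5b and Rab5c and the lowest for Rab5a. Rab17, known for transport across epithelial cells, had 3224 counts in washout 1 and 94 in compE 2, and between 0 and 1 in the other 5 libraries, and did not pass the filter.

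None of the 9 RABs of late endosomes, lysosomes and related organelles reached 10 counts in all 7 libraries. Rab7, which brings late endosomes to lysosomes, had the largest total of the group and, like Rab24, reached 10 counts in 6 libraries. It had 2353, 1539 and 2904 counts in washout, 1152 and 5219 in compE, 2002 in Fc-JAG1 1 and 0 in Fc-JAG1 3, where a count of 0 allows up to 0.114 CPM. Rab24, a RAB linked to autophagy, was likewise at 0 in Fc-JAG1 3 and at 430 to 2237 counts in the other 6 libraries. Of its exon bases, 62.4% overlap Prelid1 on the opposite strand, and without strand in the counting the reads of the 2 genes cannot be told apart. Rab32 and Rab38, which build melanosomes and other lysosome-related organelles, were both high in washout 2, compE 2 and Fc-JAG1 1. Rab32 had 2590, 1510 and 2992 counts there and 0 to 31 in the other 4 libraries, and Rab38 had 2010, 4123 and 1559 counts there, 6352 in washout 1 and 1 in each of the other 3.

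Of the 9 RABs of regulated secretion, Rab44 dominated. Rab44 is an unusually long RAB known in the mouse from mast cell degranulation, and it lies at chr17:29114145-29148980 of GRCm38 on the plus strand. It had 2571, 11164 and 38222 counts in washout, 5712 and 17570 in compE and 8726 and 33780 in Fc-JAG1, the largest total of the whole family at 117745 counts. Both libraries numbered 3 were its highest, and in Fc-JAG1 3 it alone made up 36.2% of all RAB counts. Its exons add up to 5.07 kb, and per kilobase of exon Rab2a, at a median of 83.6 CPM per kb over the 7 libraries, came before Rab44 at 73.3, Rab1b at 71.2 and Rab5c at 60.6. These medians are levels within wide and overlapping ranges (31.8 to 116 CPM per kb for Rab2a and 23.4 to 253 for Rab44), so their order is not set. The methods name the gene as the counted feature, and the scale by exon length assumes that reads were counted over exons.

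Rab27a and Rab27b, which dock secretory granules and multivesicular bodies at the plasma membrane, were both missing from washout 1. Rab27a had 1, 6449 and 3438 counts in washout, 4482 and 7463 in compE and 3885 and 5170 in Fc-JAG1. Rab27b had 1, 1455 and 2056 counts in washout, 3 and 479 in compE and 1201 and 1467 in Fc-JAG1, and was thus also missing from compE 1. In the Rab3 family, known from synaptic vesicles and other secretory granules, no gene passed the filter. Rab3d was at 0 except for 139 counts in washout 2, 1059 in compE 2 and 279 in Fc-JAG1 1, Rab3a was at 0 except for 486 counts in compE 2 and 556 in Fc-JAG1 1, and Rab3b and Rab3c reached 22 and 8 counts at most. Among the 6 RABs of the cilium and of other or little known sites, Rab28, linked to cilia, had the largest total. It had 2, 3480 and 2 counts in washout, 8158 and 2661 in compE and 3670 and 0 in Fc-JAG1. Rab23, an antagonist of hedgehog signalling, had 3, 293 and 1831 counts in washout, 2448 and 0 in compE and 459 and 293 in Fc-JAG1.

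The comparison of Fc-JAG1 with the washout asks which nascent RNAs respond to the ligand. In edgeR's quasi-likelihood test, paired by embryo sample and with Benjamini-Hochberg adjustment over all 10311 genes, no gene and no RAB gene passed an adjusted p of 0.05. At an unadjusted p under 0.05 the edgeR test held 526 genes (5.10%) and 1 of the 32 RAB genes, Rab8b. The paired Wald test of DESeq2, the tool of the study, called 2108 genes, or 20.4% of those tested, and 6 of 32 RAB genes (18.8%). Of these, Rab12, Rab8b, Rab6a and Rab18 were higher with Fc-JAG1 (4 of 32, or 12.5%, against 15.7% of all genes tested), and Rab35 and Rab39 were lower (2 of 32, or 6.25%, against 4.74%). RAB genes were therefore called about as often as genes at large. With no pairing, DESeq2 called 388 genes (3.76%) and none of the 32 RAB genes. In that fit Rab12, Rab8b and Rab6a received no adjusted p and so could not be called. All 4 RAB genes called higher were at 43 counts or fewer in washout 1, the library with the fewest genes, whose partner Fc-JAG1 1 is one of the 3 gene-rich libraries. Without washout 1, DESeq2 called 5 RAB genes (15.6%, against 18.9% of all genes), with Rab12 and Rab8b higher and Rab7, Rab21 and Rab24 lower. Without Fc-JAG1 1 it called 8, with 3 higher and 5 lower (25.0%, against 25.0%). Without washout 3 it called 3 (9.38%, against 8.76%) and without Fc-JAG1 3 it called 4 (12.5%, against 9.14%), all of them higher. The part of this difference in detection was not tested.

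**Figure D3:**
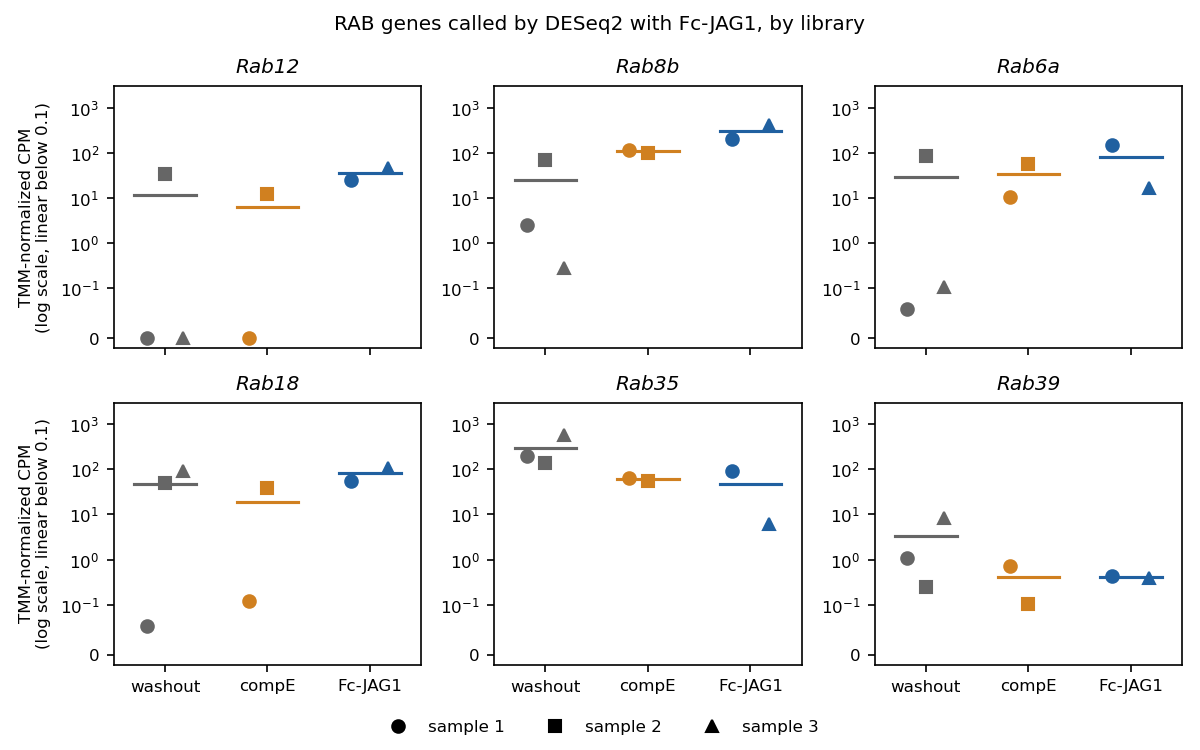
TMM-normalized CPM (vertical axis, logarithmic above 0.1) of the 6 RAB genes called by DESeq2 for Fc-JAG1 against washout, by group, with a symbol for each library (circle, square and triangle for the numbers 1, 2 and 3) and a line at the group mean. Rab12, Rab8b and Rab6a were higher in Fc-JAG1 than in the same-numbered washout in both pairs, while washout 2, which has no Fc-JAG1 partner, lay within the Fc-JAG1 range for Rab12.

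Rab12 (chr17:66494512-66519729, minus strand) directs recycling endosome cargo such as the transferrin receptor to lysosomes. It had 0, 1242 and 0 counts in washout, 0 and 482 in compE and 886 and 1093 in Fc-JAG1. Both Fc-JAG1 libraries therefore held the RNA where their paired washouts had none, but the unpaired washout 2, at 34.4 TMM-normalized CPM, lay between the 2 Fc-JAG1 libraries, at 24.3 and 46.3, so the groups overlapped. The normalized means were 35.3 ± 15.5 CPM in Fc-JAG1 (SD, n = 2) and 11.47 ± 19.9 in washout (SD, n = 3). The fitted log2 difference was 12.66 (SE 6.26) in edgeR, with an adjusted p of 0.830, and 11.42 in DESeq2, with an adjusted p of 0.000108. Because the paired washouts were at 0, this size depends on the fit and is no measure of a fold. Rab12 was tested only because it passed the low-count filter through Fc-JAG1, the group where it was higher. DESeq2 called it in all 7 fits that each left out 1 library, of which those without an Fc-JAG1 library take the spread of that group from the other groups. These fits are not 7 separate checks, since leaving out either library numbered 2, or either numbered 3, gives nearly the same fit. With no pairing the DESeq2 log2 difference was 1.85 and Rab12 received no adjusted p, so it could not be called.

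Rab8b (chr9:66843664-66919687, minus strand), the paralog of Rab8a in exocytosis, had 43, 2548 and 8 counts in washout, 2944 and 3749 in compE and 7384 and 9699 in Fc-JAG1. Both Fc-JAG1 libraries lay above both compE libraries, and these lay above all 3 washouts. Normalized means were 307 ± 147 CPM in Fc-JAG1 (SD, n = 2), 107 ± 13.9 in compE (SD, n = 2) and 24.5 ± 40.0 in washout (SD, n = 3). Rab8b gave the smallest p of the family in edgeR, with a log2 difference between Fc-JAG1 and washout of 6.39 (SE 3.05), an unadjusted p of 0.0477 and an adjusted p of 0.830. In DESeq2 the log2 difference was 7.51, with an adjusted p of 0.000592. The DESeq2 call was lost without washout 3 or without Fc-JAG1 3, where the log2 difference was as low as 3.91.

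Rab6a and Rab18 act at the Golgi and at the endoplasmic reticulum and lipid droplets. Rab6a (chr7:100607410-100641268, plus strand) had 1, 3051 and 3 counts in washout, 258 and 2182 in compE and 5324 and 384 in Fc-JAG1. It was higher with Fc-JAG1 in both pairs, although washout 2 exceeded Fc-JAG1 3. Against washout, Rab6a met the count minimum for a call only through Fc-JAG1, the group where it was higher. Its log2 difference was 5.70 (SE 3.31) in edgeR, with an adjusted p of 0.836, and 7.26 in DESeq2, with an adjusted p of 0.00440, and 3 of 7 fits without 1 library kept the DESeq2 call. It was lost without washout 1, washout 3, Fc-JAG1 1 or Fc-JAG1 3, at log2 differences of 5.76, 7.31, 7.22 and 7.37. Of the exon bases of Rab6a, 19.0% overlap Mrpl48 on the opposite strand.

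Rab18 (chr18:6733905-6794429, plus strand) had 1, 1764 and 2551 counts in washout, 3 and 1474 in compE and 2002 and 2525 in Fc-JAG1. Here the pair numbered 1 alone differed, since washout 3 and Fc-JAG1 3 held nearly equal counts. The log2 difference was 3.16 (SE 3.01) in edgeR, with an adjusted p of 0.958, and 5.91 in DESeq2, with an adjusted p of 0.0316. In DESeq2 fits without 1 library the call was kept only without washout 3 or Fc-JAG1 3, and the lowest log2 difference was 0.21.

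The 2 RAB genes called lower were each furthest apart in the pair numbered 3. Rab35 (chr5:115631908-115647736, plus strand) had 3359, 5099 and 15921 counts in washout, 1624 and 2165 in compE and 3287 and 146 in Fc-JAG1. In normalized CPM both Fc-JAG1 libraries, at 90.2 and 6.18, lay under all 3 washouts, at 141 to 567, but the gap in the pair numbered 1 was small beside that in the pair numbered 3. The log2 difference was −3.02 (SE 2.36) in edgeR, with an adjusted p of 0.907, and −3.59 in DESeq2, with an adjusted p of 0.0459. Rab39 (chr9:53684110-53706232, minus strand) had 19, 9 and 239 counts in washout, 18 and 4 in compE and 16 and 9 in Fc-JAG1, so washout 3 stood apart from 6 libraries with few counts. Rab39 passed the low-count filter only through washout, the group where it was higher. Its log2 difference was −3.16 (SE 1.69) in edgeR, with an adjusted p of 0.830, and −3.23 in DESeq2, with an adjusted p of 0.0438. Neither call was made in any of the 7 DESeq2 fits that left out 1 library, but Rab39 received no adjusted p without washout 3.

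The bases upstream of 5 of the 6 called genes, all but Rab18, are shown because these genes were called together in a comparison of NOTCH ligand with washout. They are from RefSeq on GRCm38.p6, written 5′ to 3′ on the strand of the gene, and end where the first start in RefSeq or GENCODE begins. Capitals mark TGGGAA, the core letters bound by the NOTCH partner RBPJ, and GGGCGG, the GC box bound by SP1, on either strand and with overlaps kept.
Rab12, chr17:66519730-66519920, minus strand: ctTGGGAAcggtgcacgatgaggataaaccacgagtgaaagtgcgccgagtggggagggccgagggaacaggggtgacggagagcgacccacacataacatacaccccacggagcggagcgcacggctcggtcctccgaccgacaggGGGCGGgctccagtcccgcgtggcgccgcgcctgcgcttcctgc
Rab8b, chr9:66919706-66919955, minus strand: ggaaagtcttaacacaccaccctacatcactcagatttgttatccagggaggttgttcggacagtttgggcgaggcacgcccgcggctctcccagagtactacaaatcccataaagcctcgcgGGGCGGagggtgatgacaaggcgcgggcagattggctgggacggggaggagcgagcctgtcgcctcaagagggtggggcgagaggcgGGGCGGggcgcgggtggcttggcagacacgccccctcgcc
Rab6a, chr7:100607336-100607409, plus strand: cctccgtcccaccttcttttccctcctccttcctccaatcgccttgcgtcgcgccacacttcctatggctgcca
Rab35, chr5:115631737-115631907, plus strand: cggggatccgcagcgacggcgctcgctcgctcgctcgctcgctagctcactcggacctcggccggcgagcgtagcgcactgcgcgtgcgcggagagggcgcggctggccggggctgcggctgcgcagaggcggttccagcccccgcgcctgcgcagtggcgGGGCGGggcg
Rab39, chr9:53706233-53706482, minus strand: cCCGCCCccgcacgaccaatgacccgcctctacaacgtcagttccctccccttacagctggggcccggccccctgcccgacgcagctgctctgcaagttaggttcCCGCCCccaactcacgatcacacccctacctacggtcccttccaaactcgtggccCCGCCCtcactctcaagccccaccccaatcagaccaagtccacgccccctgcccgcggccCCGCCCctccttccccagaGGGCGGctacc

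Of these 5 genes, Rab12 alone shows TGGGAA, once, 248 bases before its RefSeq start. Rab12 and Rab35 each show 1 GC box, Rab8b 2 and Rab39 5, while the short stretch of Rab6a shows none. Over the 250 bases before RefSeq starts, TGGGAA was found in 17 of 60 windows of RAB genes (28.3%, from 48 RAB genes with an entry) and in 21.6% of all 32851 windows. GGGCGG was found in 66.7% of RAB windows and 32.7% of all windows, and TATAAA in 6.67% and 12.4%. The windows of RAB genes also held more G and C, with a median of 60.2% against 52.4%. These are counts of letters and name no bound site.

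Across the 32 tested RAB genes there was no common shift with Fc-JAG1. In edgeR 16 had a log2 difference from washout above 0 and 16 below, with a median of 0.18 against 0.44 over all genes tested. With DESeq2's size factors in edgeR the median of all genes fell to 0.07 and that of the RAB genes to −0.18, so the side of 0 on which the family lay depended on the scaling. Approximate standard errors, worked back from the test, ran from 0.81 for Rab44 to 6.26 for Rab12, with a median of 2.88 on the log2 scale. Rab44, with the smallest of these values, differed by 0.39 (SE 0.81), and Rab2a by −0.23 (SE 1.71). Judged by overlap of the normalized values alone, Rab8a and Rab8b lay higher in both Fc-JAG1 libraries than in all washouts, against 10.5% of all genes, and Rab11b and Rab35 lay lower, against 6.85%.

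**Figure D4:**
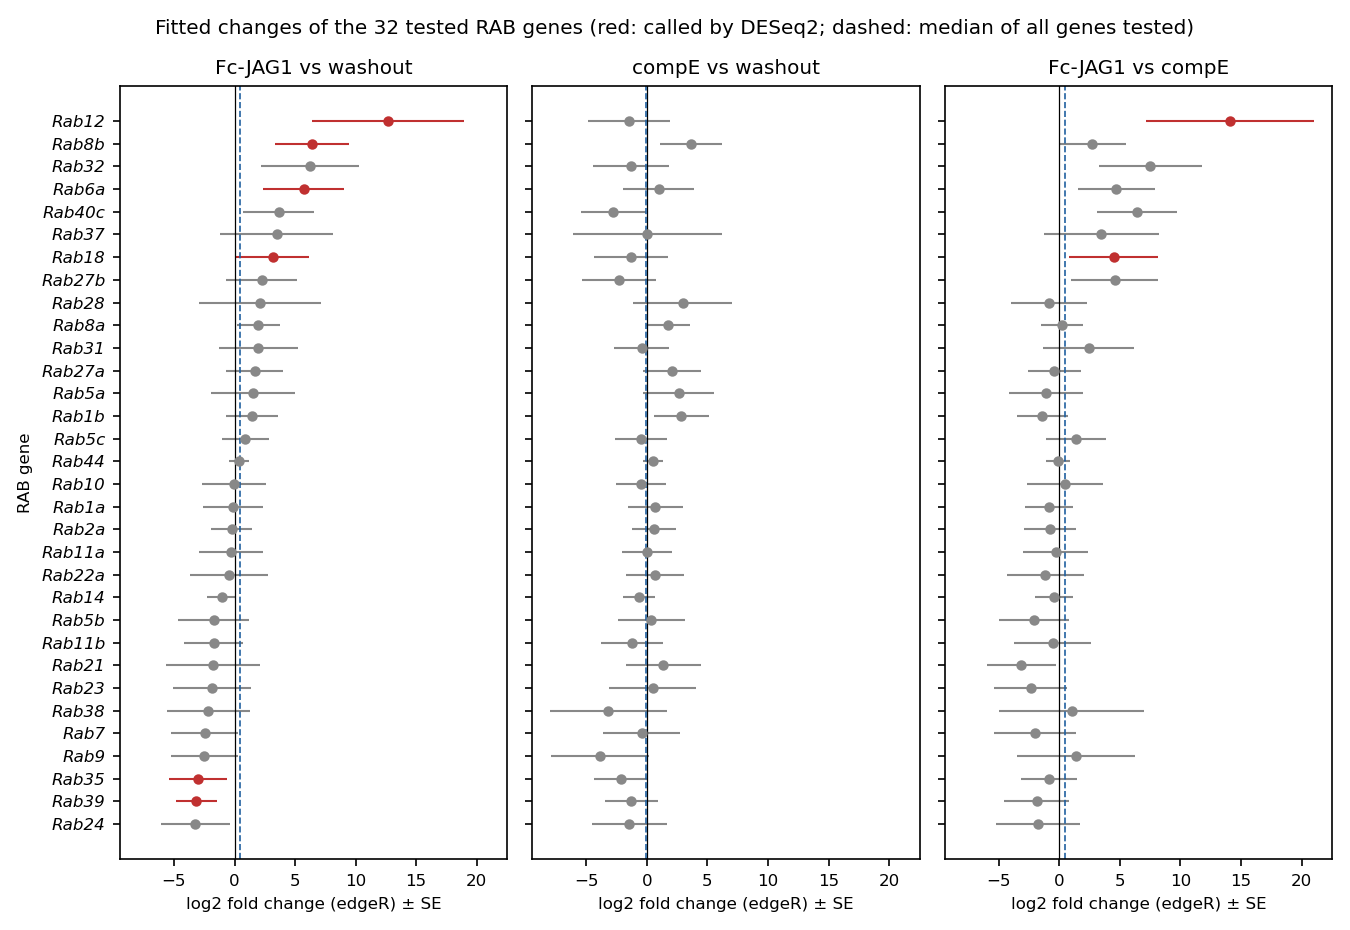
Fitted log2 differences from edgeR with approximate standard errors worked back from the test (horizontal axis). Rows are the 32 tested RAB genes, ordered by Fc-JAG1 against washout, in the 3 comparisons. Red marks genes called by DESeq2, and the dashed line is the median of all genes tested. The error bars are several log2 units long for most genes, with medians of 2.88, 2.62 and 3.09 in the 3 panels.

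The comparison of compE with the washout asks what changes while γ-secretase stays inhibited, and it shares the washout libraries with the first comparison. No gene passed in edgeR, where 273 genes (2.65%) and no RAB gene had an unadjusted p under 0.05. DESeq2 called 962 genes (9.33%, with 5.66% higher and 3.67% lower) and 0 of 32 RAB genes. Without washout 2 or without compE 2, it called 3 RAB genes lower (9.38%, against 10.1% of all genes), namely Rab9, Rab37 and Rab38, each of which passed the low-count filter only through washout. The RAB genes with the smallest p in edgeR were Rab8b, Rab1b and Rab40c, each with an adjusted p of 1. The log2 difference between compE and washout was 3.66 (SE 2.55) for Rab8b and 2.84 (SE 2.25) for Rab1b, and each of the 2 compE libraries lay above all 3 washouts for Rab8b but not for Rab1b. Rab40c, of a RAB subfamily that recruits ubiquitin ligases, had 79, 459 and 0 counts in washout, 4 and 100 in compE and 1686 and 0 in Fc-JAG1. Its log2 difference was −2.78 (SE 2.68). By overlap alone, Rab8b lay higher in compE than in washout (1 of 32, or 3.12%, against 10.9% of all genes) and Rab35 and Rab9 lay lower (6.25% against 6.79%). Rab9, which returns receptors from late endosomes to the Golgi, had 3438, 1719 and 1334 counts in washout, 0 and 1262 in compE and 1846 and 0 in Fc-JAG1. The median log2 difference of the RAB genes was −0.22, against −0.10 for all genes tested.

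The comparison of Fc-JAG1 with compE sets ligand against inhibitor, and the 2 groups share only the embryo sample numbered 1. edgeR passed no gene, with 289 genes (2.80%) and no RAB gene at an unadjusted p under 0.05. DESeq2 called 1175 genes (11.4%) and 2 of 32 RAB genes (6.25%), Rab12 and Rab18, both higher with Fc-JAG1. Over all genes, 9.18% were called higher and 2.21% lower. Of the 2 groups, Rab12 and Rab18 met the count minimum for a call only in Fc-JAG1, where they were higher. For Rab12 the log2 difference was 14.12 (SE 6.94) in edgeR, with an unadjusted p of 0.0551 and an adjusted p of 1, and 12.42 in DESeq2, with an adjusted p of 0.000810. Without compE 1 the call was lost, at a DESeq2 log2 difference of 13.19 with an adjusted p of 0.0724. For Rab18 the values were 4.47 (SE 3.68) in edgeR, with an adjusted p of 1, and 7.05 in DESeq2, with an adjusted p of 0.0482, and 2 of 7 fits without 1 library kept the call. The number of RAB genes called ran from 0 without compE 1, where 0.989% of all genes were called, to 4 (12.5%) without Fc-JAG1 1, where 14.2% were. Rab40c and Rab32 had a smaller edgeR p than Rab18, at log2 differences of 6.42 (SE 3.30) and 7.52 (SE 4.25), but each was at 0 in Fc-JAG1 3 and at or near 0 in compE 1, so neither reached 10 counts in both libraries of a group as the call required. By overlap alone, Rab12, Rab18, Rab27b and Rab8b lay higher in Fc-JAG1 than in compE (4 of 32, or 12.5%, against 15.0% of all genes) and Rab10, Rab11b, Rab1a and Rab21 lay lower (12.5% against 15.4%). The median log2 difference of the RAB genes was −0.36, against 0.43 for all genes.

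Genes that load, switch and recycle RABs were read from 4 lists, of which 120 genes were tested. edgeR called none of them in the 3 comparisons, with 5, 4 and 0 at an unadjusted p under 0.05. DESeq2 called 18 higher and 7 lower with Fc-JAG1 against washout (20.8%, against 20.4% of all genes), 7 higher and 6 lower with compE against washout (10.8%, against 9.33%), and 8 higher and 3 lower with Fc-JAG1 against compE (9.17%, against 11.4%). In the short list of prenylation and membrane recycling, DESeq2 called 4 of 7 genes higher with Fc-JAG1, among them Rabggta, against 15.7% of all genes. In further fits chosen after seeing the data, none of the 7 was called with no pairing or without washout 3. Leaving out washout 1 gave 2 called higher and 1 lower, and leaving out washout 2 gave 3 called higher. Over all genes, 1.49%, 7.35%, 12.1% and 10.4% were called higher in these 4 fits, in that order. Fits that left 1 library in a group are not listed, and some of them also kept calls in this list. Rabggta, the α subunit of the enzyme that prenylates RABs, had 0, 1854 and 0 counts in washout, 13985 and 1030 in compE and 2862 and 1661 in Fc-JAG1. It showed the pattern of Rab12 in the washouts, with no counts in washout 1 and 3 and many in washout 2. DESeq2 called Rabggta also higher with compE against washout, with an adjusted p of 0.000309. Usp6nl, a GTPase-activating protein for Rab5, led the lists for Fc-JAG1 against washout, with 2, 446 and 1 counts in washout, 131 and 1384 in compE and 2819 and 7646 in Fc-JAG1. Its log2 difference was 10.23 in DESeq2, with an adjusted p of 2.18e-05, and 7.90 (SE 3.35) in edgeR, with an adjusted p of 0.830. Rab11fip2, an effector of Rab11, had 1, 6 and 1 counts in washout, 3 and 1013 in compE and 1231 and 164 in Fc-JAG1, and adjusted p of 0.000396 in DESeq2 and 0.830 in edgeR. It passed the filter only through Fc-JAG1, the group where it was higher. Against washout, Rabggta and Usp6nl also met the count minimum for that call only through Fc-JAG1.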

How the data were processed

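Nascent RNA of GFI1+ IAHC was measured in 7 libraries. The authors used cutadapt 4.2 for trimming, STAR 2.7.8 for alignment to GRCm38 and featureCounts of Subread 2.0.1 to assign uniquely mapped reads. The deposited raw counts are whole numbers that were not normalized. The deposited filtered counts cover 10311 genes, those with 10 counts or more in 2 or more libraries of a group. The methods name the gene as the counted feature. Strandedness, and whether introns within a gene were counted, are not given in the sources used here. The table of values transformed by the authors and the library Fc-JAG1 2 were not used here.

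Symbols came from GENCODE M21 (55227 of 55487 IDs matched). The 59 RAB genes were matched by symbol, and 4 similar names (partners and antisense RNAs) were left out. The members and the gene lists were chosen with earlier results of these data known. The main test was edgeR 4.0.16's quasi-likelihood test on counts with TMM factors, group and embryo sample as terms, all 7 libraries in 1 fit and Benjamini-Hochberg adjustment. It was first tried on simulated data with far less spread between libraries than these data, whose common dispersion (edgeR's measure of that spread) was 2.42. That trial therefore does not show how the test performs here. The SE given with an edgeR log2 difference was worked back from its test. It is the absolute difference divided by the square root of the F statistic. This approximates a standard error and was not estimated by the fit itself. DESeq2 1.42.0 was the main alternative, and a call also needed 10 counts in both or more of the replicates of a compared condition. Other alternatives were other size factors, no low-count filter, no embryo term and leaving out each library. CPM are counts in every 1000000 counts of a library, and TMM-normalized CPM use the TMM library sizes. P-values weigh a difference against the spread between these samples, and limits for counts of 0 cover counting error only. The libraries of one number came from the same embryo sample by the labels. Their deviations from the group means correlated at −0.0854 to 0.0915 over 5 pairs, and those of libraries with different numbers at −0.0964 to 0.0964. In a group of 2 libraries the deviations mirror each other, so these values cannot show whether the pairing holds. Raw counts in every library are given for RAB genes called in a comparison, present in all 7 libraries, in the paralog sets Rab1, Rab5, Rab7, Rab11 and Rab27, or with the largest total of their compartment group. Fitted differences are given for called genes and the 3 with the smallest edgeR p in each comparison. Other genes named with values were chosen after their values were seen. From the lists of RAB regulators and effectors, up to 5 called genes with the smallest DESeq2 p were open to naming in each comparison. One gene of these lists is not reported here.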

Additional observations from a re-analysis of the deposited data

How the results depend on the processing

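In edgeR, no RAB gene was called in any of the 3 comparisons under DESeq2's size factors, no low-count filter, no replicate block or in the fits that left out 1 library, and over all genes the fit with no replicate block called 1 gene for Fc-JAG1 against washout. With DESeq2 the calls were 2108 genes and 6 RAB genes for Fc-JAG1 against washout, 962 and 0 for compE against washout, and 1175 and 2 for Fc-JAG1 against compE. With DESeq2 and no replicate block they were 388, 325 and 190 genes (3.76%, 3.15% and 1.84%) and 0 of 32 RAB genes in each comparison. With shares this small over all genes, 0 of 32 is no result particular to the RAB genes. For Fc-JAG1 against washout, Rab12, Rab8b and Rab6a received no adjusted p with DESeq2 and no replicate block, so they could not be called. Leaving out 1 library in turn, DESeq2 called from 903 to 2573 genes and from 3 to 8 RAB genes for Fc-JAG1 against washout, from 27 to 1704 and from 0 to 3 for compE against washout, and from 102 to 1469 and from 0 to 4 for Fc-JAG1 against compE, while edgeR called 0 in each. The lowest counts of genes came without washout 3 in the first of these comparisons and without compE 1 in the other two, and the highest without Fc-JAG1 1, washout 2 or compE 2, and Fc-JAG1 1. Leaving out a library numbered 2 or 3 also takes its partner out of the paired contrast. The fits without washout 2 and without compE 2 are therefore nearly the same fit, as are those without washout 3 and without Fc-JAG1 3. The 7 fits are not 7 separate checks. Where a group is left with 1 library, that library is assumed to vary like those of the other groups. Other RAB genes called in some of these fits were Rab7, Rab9, Rab21, Rab24, Rab27b, Rab31, Rab37 and Rab38.

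The median log2 difference of the RAB genes for Fc-JAG1 against washout was 0.92 with no low-count filter, which tests 53 RAB genes, and −0.52 with DESeq2 and no replicate block. For compE against washout it was −0.61 with DESeq2. For Fc-JAG1 against compE it was −0.66 with DESeq2's size factors and 0.47 with no filter. Leaving out 1 library, it ran from −0.12 to 0.82 in edgeR and from −0.11 to 0.46 in DESeq2 for Fc-JAG1 against washout, from −0.70 to 0.092 and from −0.97 to 0.061 for compE against washout, and from −0.39 to 0.36 and from −0.40 to 0.24 for Fc-JAG1 against compE. The cause was not tested. No named log2 difference changed direction across 13 genes and comparisons. These genes were named from fits to the same libraries that the alternatives reuse, so kept signs were largely set in advance. The smallest reached 0.16, for Rab18 in Fc-JAG1 against compE in a DESeq2 fit without 1 library. Under an alternative, 33 values, all from DESeq2, were called where the edgeR value was not. The other 214 were not called, some of them for Rab32 and Rab40c only because of the count minimum. Some others, such as Rab12 with no pairing, had no adjusted p in DESeq2. At 1 count in place of 10, 42, 45 and 37 RAB genes were seen in washout 1, 2 and 3, 35 and 44 in compE, and 47 and 35 in Fc-JAG1. With 2 or 3 libraries a group, the approximate standard errors of RAB genes had medians of 2.62 to 3.09 log2 units. At that size, changes of a few log2 units were not detectable for a typical RAB gene in edgeR, although Rab44 and a few others had smaller values.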

Other observations

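Several RAB genes outside the comparisons were held almost wholly by 1 library. Rab17 had 3224 of its counts in washout 1, a library that otherwise held few RAB genes, and Rab39b had its counts in washout 2 alone. Rab33b, which acts in autophagy, and Rab34, which acts in cilium formation, passed 10 counts only in washout 2, compE 2 and Fc-JAG1 1, the libraries with the most genes of all kinds. In each of the other 4 libraries neither gene exceeded 3 counts. These values are given with no explanation.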
